A study of Mus musculus with 6 samples.

Results

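A perfect p53 element was taken as 2 adjacent copies of the p53 consensus decamer, with no base between them and no mismatch. The decamer reads 3 purines, C, 2 bases that are A or T, G, and 3 pyrimidines. Every position of mouse chromosomes 1 to 19 and X (build mm9) that meets this pattern was collected whether or not p53 was found there, and positions closer than 20 bp were merged. This gave 631 elements among 2555794997 positions of 20 bases without an unknown base. The choice used the reference sequence alone and no measured value. Of the 631 elements, 353 lay inside a p53 peak of irradiated B or non-B cells and 278 did not.

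The peaks came from p53 ChIP-seq, in which DNA bound to p53 is pulled down by an antibody (CM5p) and sequenced, on spleen cells of C57/Bl6 mice. The 5 peak lists were B cells and non-B cells of wild-type mice aged 8 weeks, each untreated (mock) or collected 4 h after 7 Gy of whole-body irradiation (IR), and total spleen of irradiated Trp53-/- mice, which lack p53 in every cell and for which no age is labelled. B cells were selected by the surface marker B220 and non-B cells were what remained, a mixture of cell types in which T cells are frequent. Each list came from 1 library of chromatin pooled from several animals, so differences between lists have no replicate error beside them, and the 95% intervals cover counting error alone. Peak lists hold no expression values, so the labelled cell types could not be checked against marker genes, and a site bound in more cells cannot be told apart from a site bound more strongly in each cell.

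p53 accumulates when DNA is damaged and binds DNA as a tetramer. Each decamer is contacted by a pair of p53 molecules, and the C and G of the 4-base core (C, A or T, A or T, G) are the bases most strictly required. Cores of CATG are known to bend easily and to be bound tightly. The outer purines and pyrimidines are contacted less strictly, and most p53 sites in a genome depart from the consensus at some position.

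The elements below are shown because the results turn on them, with both cores in capitals. They are written on the forward strand of mm9 where a position is given, and otherwise in 1 of the 2 possible orientations. The element with the highest B cells IR value lay between genes at chr5:90812257-90812276, the next lay upstream of Dyrk3 at chr1:133035944-133035963, and the element in the first part of Zmat3 lay at chr3:32263253-32263272. The most frequent 20-base sequence occurred at 125 loci, the next at 29, and a close relative of that one at 6. The last sequence lay at chr7:28181253-28181272, at the start of Spnb4, in no peak of any list.
chr5 element: ggaCAAGctcagaCATGttt
Dyrk3 element: ggaCTTGcctggaCATGttt
Zmat3 element: agaCATGcctgggCTTGttt
Most frequent: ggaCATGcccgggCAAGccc
Second: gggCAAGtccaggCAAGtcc
Relative of the second: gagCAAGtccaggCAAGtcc
Spnb4 element: agaCTAGcctaggCTAGctc

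After irradiation about as many perfect elements were inside a peak as outside, in both cell populations. Of the 631 elements, 340 (53.9%, 95% Wilson interval 50 to 57.7) lay inside a B cells IR peak, where all 20-base positions gave 0.379%. Peaks of irradiated non-B cells held 332 (52.6%, 48.7 to 56.5), against 0.306% of all positions. Before irradiation 33 elements (5.23%, 3.75 to 7.25) lay inside a B cells mock peak, against 0.00764% of all positions, and 27 (4.28%, 2.96 to 6.15) inside a non-B cells mock peak, against 0.00429%. No element lay inside or touched a peak of the irradiated Trp53-/- spleen (upper limit 0.605%, against 0.000341% of all positions). That list held 74 peaks on these chromosomes, so the absence says little about single elements.

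**Figure D1:**
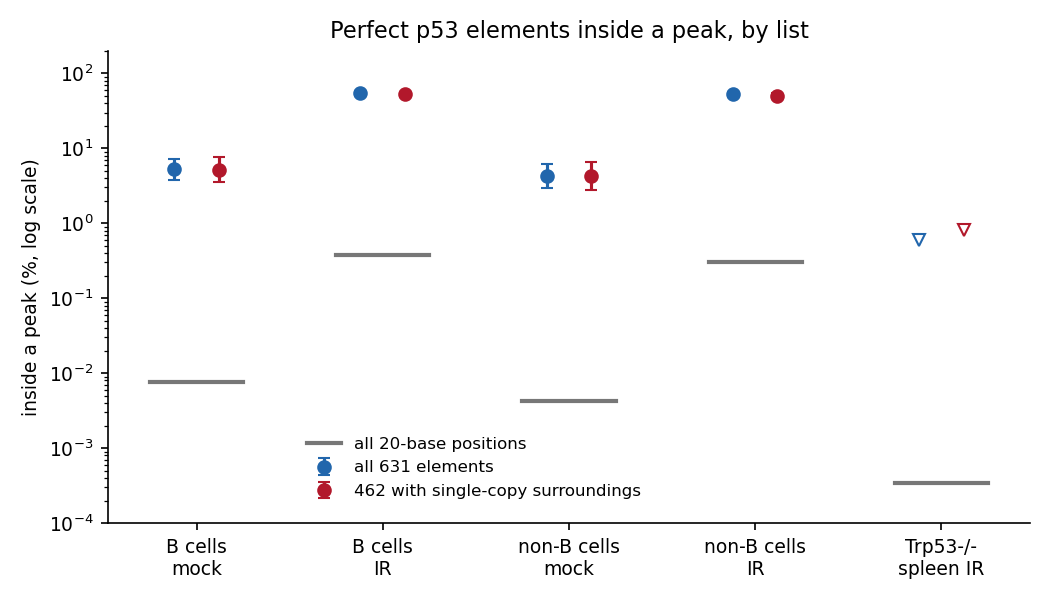
Share of perfect elements inside a peak of each list (y axis, percent, log scale) for all 631 elements (blue) and the 462 with single-copy surroundings (red), with 95% Wilson intervals. Open triangles mark the upper limit where no element was found, and grey bars the share of all 20-base positions. Both IR lists stand near 50%, both mock lists near 5%.

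The same elements were found in the 2 irradiated populations. Of the 340 elements in B cells IR, 319 (93.8%, 90.7 to 95.9) were also in non-B cells IR, and conversely the same 319 made up 96.1% (93.4 to 97.7) of the 332 in non-B cells IR. The lists also agreed widely outside these elements. Of all 20-base positions, 9684719 lay inside a B cells IR peak and 7825372 inside a non-B cells IR peak, with 6395944 in both. That count is by position and not by peak, and the study reports a large overlap of all IR peaks. Both IR lists held 319 elements (50.6%, against 0.25% of all positions), and either list held 353 (55.9%, 52.0 to 59.8, against 0.435%). From here on, bound means inside a peak of either IR list. The 21 elements in B cells IR alone sat in weak peaks, with a median at percentile 40 of that list (23.5 to 61.5), and the 13 in non-B cells IR alone at percentile 59.2 (25.9 to 71.8). The 319 shared elements had medians at percentiles 93.2 and 93.2.

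Every element inside a mock peak was bound after irradiation. The 37 elements in a mock peak fell into 23 present in all 4 wild-type lists, 10 in B cells mock and both IR lists, and 4 in non-B cells mock and both IR lists. Their IR peaks ranked near the top, with median percentiles of 99.3 (98.7 to 99.6) among peaks of irradiated B cells and 99.3 (99 to 99.7) among those of irradiated non-B cells. Neither trait is particular to perfect elements. The study reports that nearly all mock sites of any sequence were found again after irradiation, at strongly enriched peaks. Mock peaks as a whole were narrow: over all peaks the median widths were 95 bp (B cells) against 93 bp (non-B), compared with 340 and 315 bp in the IR lists. The mock peaks that held an element were wider, with medians of 360 bp (B cells) and 264 bp (non-B). A further 31 elements did not touch a B cells mock peak although their midpoint lay within 300 bp of the midpoint of one, and 30 of these 31 were bound after irradiation. For the non-B cells mock list this held for 26 elements, all 26 bound. Together with 39 and 33 elements that lay inside or touched such a peak, 70 elements (11.1%) had a B cells mock peak midpoint within 300 bp, and 59 (9.35%) had one of the other mock list.

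The deposited value of a peak was read from its range and steps as a −log10 p-value. This unit is not certain, since no header names it and the smallest values lie below the calling limit stated in the methods of the study. The value is not normalised between libraries and was compared only within a list. The chr5 element shown above had values of 295.44 and 562.64 after irradiation (B cells first, then non-B cells), and of 58.17 and 76.45 in mock. The Dyrk3 element, 1142.5 bp upstream of the transcription start site (TSS) of that kinase gene, had 295.3, 555.64, 96.78 and 92.17 in that order. An element with CATG in both cores at chr1:156903454-156903473 (agaCATGcccaggCATGtct) had the highest mock values of all elements, 158.43 and 154.01, and 258.72 and 487.52 after irradiation. Over all bound elements the median percentile was 91.9 (88.8 to 94.7) among B cells IR peaks, whose values ran from 8.33 to 295.44, and 92.5 (89.9 to 94.7) among non-B cells IR peaks, from 5.47 to 578.25. Perfect elements were nonetheless a small part of the lists: 1.39% of peaks in the B cells IR list held one, the non-B cells IR list had 1.55%, and no peak held 2. Among the 1000 B cells IR peaks of highest value 137 held one (13.7%), and among the top 100 peaks 21 did. The matching numbers for irradiated non-B cells were 138 and 20.

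**Figure D2:**
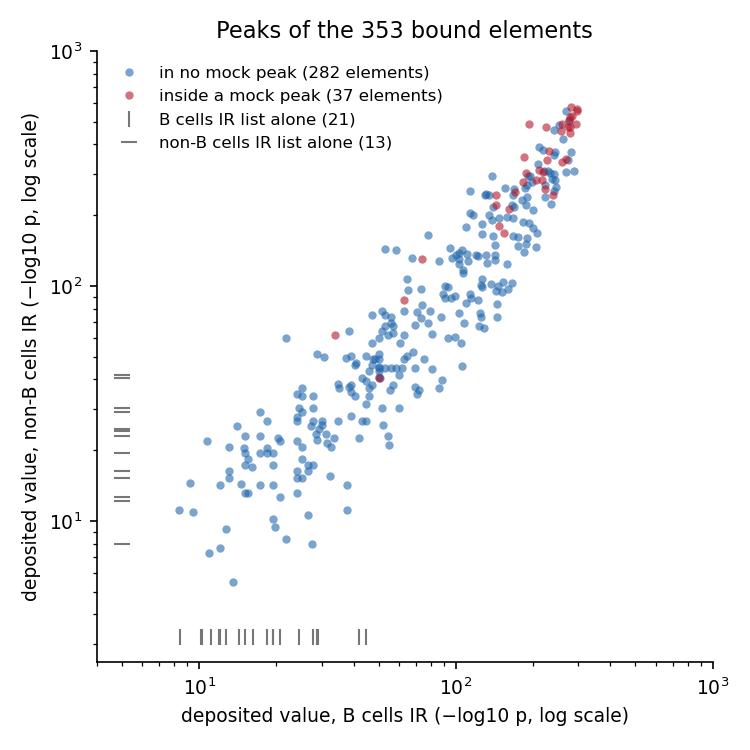
Deposited value (read as −log10 p) of the peak around each bound element in B cells IR (x axis, log scale) and non-B cells IR (y axis, log scale). Points are the 319 elements in both lists, red where the element also lay in a mock peak. Grey ticks along the axes mark the 21 and 13 elements of 1 list alone, at low values, and most red points lie at the upper right.

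The 278 unbound elements were mostly far from any peak. The median distance to the nearest IR peak was 81454 bp (95% interval 47990 to 135397), 24 lay within 1 kb of one (8.63%) and 6 touched one without lying inside it. None lay in a mock peak, and 217 had single-copy surroundings.

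Copies had to be set apart before comparing bound and unbound elements. The surroundings of an element, 100 bp on each side, were called single-copy when their 31-base words occurred once in the reference (median over words), which held for 462 elements. Of these 245 were bound (53%, 48.5 to 57.5), against 108 of 169 with repeated surroundings (63.9%, 56.4 to 70.8). The 631 elements held 370 distinct 20-base sequences. The most frequent one made up 19.8% of all elements, its loci shared 95.5% of their flanking bases (median of pairs), and a median 31-base word around it occurred 130 times. Of its 125 loci, 88 were bound (70.4%, 61.9 to 77.7). These bound loci lay a median of 184 bp from the midpoint of their B cells IR peak, and 19.2% lay within 100 bp, against 40.75 bp and 81.8% for bound elements in single-copy surroundings. How reads were divided among its copies was not tested. Results on sequence are therefore given for single-copy surroundings, and where frequent sequences weigh, for the 332 sequences found at 1 locus only, of which 143 were bound (43.1%).

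The core sequence separated bound from unbound elements. Elements with CTAG in at least 1 core were bound in 38 of 135 cases (28.1%, 21.2 to 36.3), and elements without it in 207 of 327 (63.3%, 58.0 to 68.3), all in single-copy surroundings. The difference over all elements was −35.4 percentage points (95% Newcombe interval −43.4 to −26.2), and was chosen for display after the shares by core pair had been seen. It was found within ranges of GC content too: 27.8 against 65.7% at 40 to 45% GC, 30 against 73.5% at 45 to 50%, and 21.4 against 77.3% at 50 to 55%. Below 40% GC the shares were 26.1 and 35.0%, with overlapping intervals. Among sequences at 1 locus 25.2% with CTAG and 52.5% without it were bound.

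Pairs of CATG stood at the other end. With CATG in both cores 24 of 33 elements were bound (72.7%, 55.8 to 84.9). Over all elements this was 17.7 points above the rest (0.313 to 30.6), and in single-copy surroundings 21.2 points (3.63 to 34.3). The rest included the elements with CTAG. Elements without CTAG, these pairs among them, gave 63.3% (58.0 to 68.3) in single-copy surroundings, an interval that overlaps that of the CATG pairs. With 1 CATG core the share was 56.0% and with none 50.2%, in single-copy surroundings. For CAAG in both cores, read in the same direction, 125 of 182 were bound (68.7%), but the share was 48.1% (37 of 77) among sequences at 1 locus, so it rested in part on a few frequent sequences. When the CAAG cores faced opposite ways, 11 of 32 were bound (34.4%, 20.4 to 51.7). Among pairs with CTAG, CTAG in both cores gave 14 of 50 (28%), CAAG followed by CTAG 11 of 44 (25%), CTAG followed by CAAG 4 of 21 (19%, 7.67 to 40), and CATG with CTAG 9 of 20 (45%, 25.8 to 65.8), whose interval overlaps that of elements without CTAG.

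Core sequence also went with binding before irradiation. Elements with CATG in both cores lay in a mock peak in 8 of 33 cases (24.2%, 12.8 to 41.0), those with 1 CATG core in 13 of 100 (13%, 7.76 to 21.0), and those with none in 6 of 329 (1.82%, 0.838 to 3.92), in single-copy surroundings. Only 2 of 135 elements with a CTAG core were in a mock peak (1.48%).

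The bases outside the cores differed as well, although each of them met the consensus. Positions were counted from 1 at each 5′ end, so that every element has 2 readings of each position. With C at position 9 in both readings, that is, C and G around the junction of the decamers, 173 of 228 elements were bound (75.9%, 69.9 to 81.0). With C in 1 reading 65 of 168 were (38.7%, 31.7 to 46.2), and with T in both 7 of 66 (10.6%, 5.23 to 20.3). G at position 2 gave shares of 72.3, 44.4 and 23.2% for both, 1 and no reading, and G at position 1 gave 69.1, 47.1 and 36.6%. Among sequences at 1 locus position 2 gave 60.6, 40.9 and 23.2%, so its highest share rested in part on frequent sequences. Position 9 gave 74.4, 33.1 and 10.4% there. C at position 10, the junction itself, gave 73.7% (14 of 19, 51.2 to 88.2), 56.6% (51.5 to 61.6) and 32.1%. C there in both readings is the same as CpG at the junction, and its interval overlaps that of C in 1 reading. Over all elements without the most frequent sequence these shares were 52.3, 56.5 and 33.7%, with no rise from 1 to both readings. Positions 3 and 8, which flank the core, gave shares between 45.2 and 59.4% with no order.

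**Figure D3:**
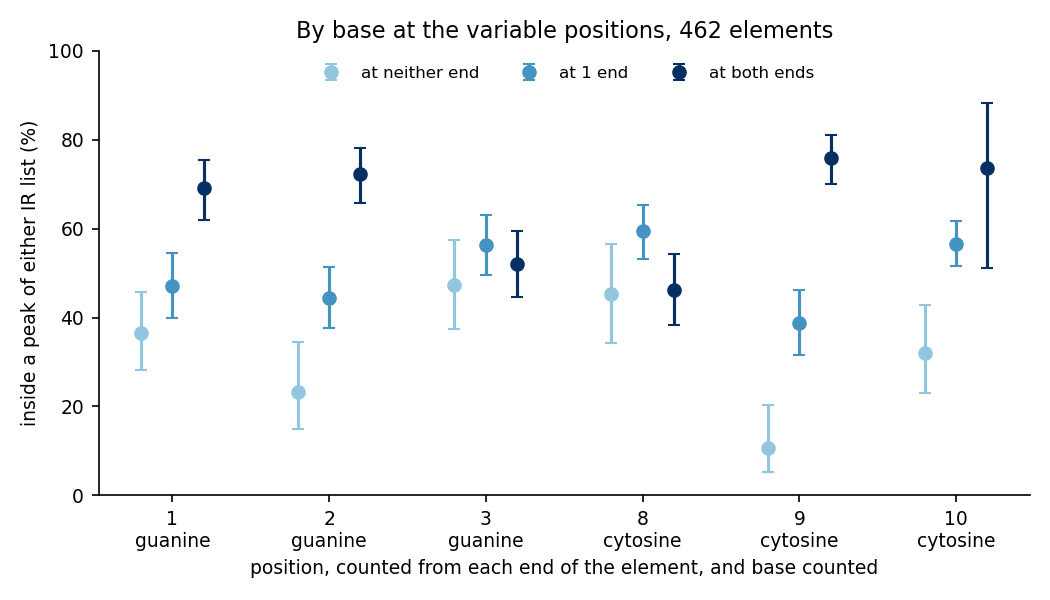
Share of the 462 elements in single-copy surroundings that were bound (y axis, percent) by the base at 6 positions counted from each end (x axis), where the named base was present at neither, 1 or both ends (light to dark), with 95% Wilson intervals. The shares rise with the number of ends at positions 1, 2, 9 and 10, from 10.6 to 75.9% at position 9, and not at positions 3 and 8. At position 10 only 19 elements have C at both ends, and the intervals for 1 and both ends overlap.

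The differences by CTAG core and by position 9 were also found within each other, and the other positions were not crossed with the core. Without a CTAG core, C at position 9 in both, 1 and no reading gave 85.6, 50 and 15.2% bound, and with a CTAG core 49.2, 14.8 and 0% (0 of 20), in single-copy surroundings. Among sequences at 1 locus the 3 shares without CTAG were 90.1, 43.4 and 14.9%. The order held within GC content too: at 40 to 45% GC 72.1, 41.8 and 17.4%, and at 45 to 50% GC 85.2, 35.6 and 12.5%. Elements without a CTAG core that read C at position 9 and, in the same way, G at position 2 from both ends were bound in 26 of 28 cases among sequences at 1 locus (92.9%, 77.4 to 98.0), and the others in 117 of 304 (38.5%). Without the condition on position 2 the share was 90.1% (64 of 71), so that condition changed it little. With CTAG cores included, G at position 2 in both, 1 and no reading gave 80.4, 75.9 and 46.2% where C at position 9 was in both readings. With C in 1 reading these were 47.7, 30.9 and 19.4%, and with C in none 22.2, 5.26 and 15%, without order. These groupings were made after the shares by position had been seen.

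Some of the frequent sequences differ by 1 base. The second most frequent sequence was bound at 25 of 29 loci (86.2%, 69.4 to 94.5). Its relative, which differs by G2A (the more frequent sequence has G at position 2, counted from its 5′ end), was bound at 1 of 6 (16.7%, 3.01 to 56.4). The third most frequent sequence, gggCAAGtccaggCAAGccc, differs from the second by T18C and was bound at 23 of 25 loci (92%, 75 to 97.8). Changes to the third sequence gave smaller differences, on few loci, and 1 of them went against the shares by position. This was the relative with C9T (gggCAAGttcaggCAAGccc), bound at 6 of 6 loci. The relatives with G12A (gggCAAGtccaagCAAGccc, 4 of 5, 37.6 to 96.4) and with G2A on the other strand (gagCTTGcctggaCTTGccc, 3 of 4, 30.1 to 95.4) were bound less often. Their intervals overlap that of the third sequence. The fourth most frequent sequence, aaaCAAGcccgggCATGccc, was bound at 7 of 23 loci (30.4%, 15.6 to 50.9), in surroundings where a median 31-base word occurred 11 times.

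Identical elements were bound at some loci and not at others. Of the 38 sequences with at least 2 loci, 16 were bound at all loci, 3 at none and 19 at some. Of the 26 single-copy loci of the second sequence, 22 were bound and 4 were not, and the GC content around them (250 bp on each side) had medians of 46.1 and 44.3%. For the third sequence these were 22 and 2 loci, with 44.9 and 41.0%. Median distances to a TSS, bound then unbound, were 22444.5 and 199588 bp for the second sequence and 29457 and 120284 bp for the third. Neither order held in every sequence. For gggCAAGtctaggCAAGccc GC content was 45.4 and 48.4%, and for gggCAAGtccaagCAAGccc TSS distance was 71816 and 14239.5 bp. Bound loci of 1 sequence also differed in value. The second sequence had 246.25 in irradiated B cells and 264.5 in irradiated non-B cells near Adrb3, 95.47 and 88.42 in an intron of Fhl2, and 12.09 in B cells IR alone near 4930591A17Rik. At 956.5 bp upstream of Hat1, a histone acetyltransferase gene, it was in no peak.

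Distance to a TSS separated the elements little, with overlapping intervals throughout. Within 1 kb of a TSS 6 of 10 elements were bound (60.0%, 31.3 to 83.2), at 1 to 5 kb 41 of 65 (63.1%), at 5 to 50 kb 174 of 317 (54.9%), and farther away 132 of 239 (55.2%). In single-copy surroundings the shares fell with distance, 62.5 (5 of 8), 57.4, 54.4 and 49.7%, and their intervals overlapped too. Over the same ranges the share of all 20-base positions inside a peak fell from 3.71 to 0.565, 0.361 and 0.117%. Elements within 5 kb were bound 7.63 points more often than the rest, with an interval from −4.40 to 18.5 that includes no difference, and 0.217 points more often when only TSSs of protein-coding genes were counted. The median distance was 26932.5 bp for bound and 28423.5 bp for unbound elements. Between genes 249 of 423 elements were bound (58.9%, 54.1 to 63.5) and in introns 102 of 204 (50%, 43.2 to 56.8). Only 4 elements lay in an exon, of which 2 were bound.

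GC content separated them at its low end. Below 40% GC 34 of 99 elements were bound (34.3%, 25.7 to 44.1), at 40 to 45% 176 of 310 (56.8%), at 45 to 50% 119 of 177 (67.2%), at 50 to 55% 20 of 38 (52.6%) and above that 4 of 7. The share of all positions inside a peak rose over the same ranges from 0.0751 to 0.293, 0.583, 1.08 and 4.53%. Median GC content was 44.0% around bound and 42.7% around unbound elements, a difference of 1.3 points (0.80 to 2.22) over 250 bp on each side and of 0.75 points over 1 kb. In single-copy surroundings the difference over 250 bp was 1.4 points, with an interval that includes no difference (−0.0142 to 2.57).

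**Figure D4:**
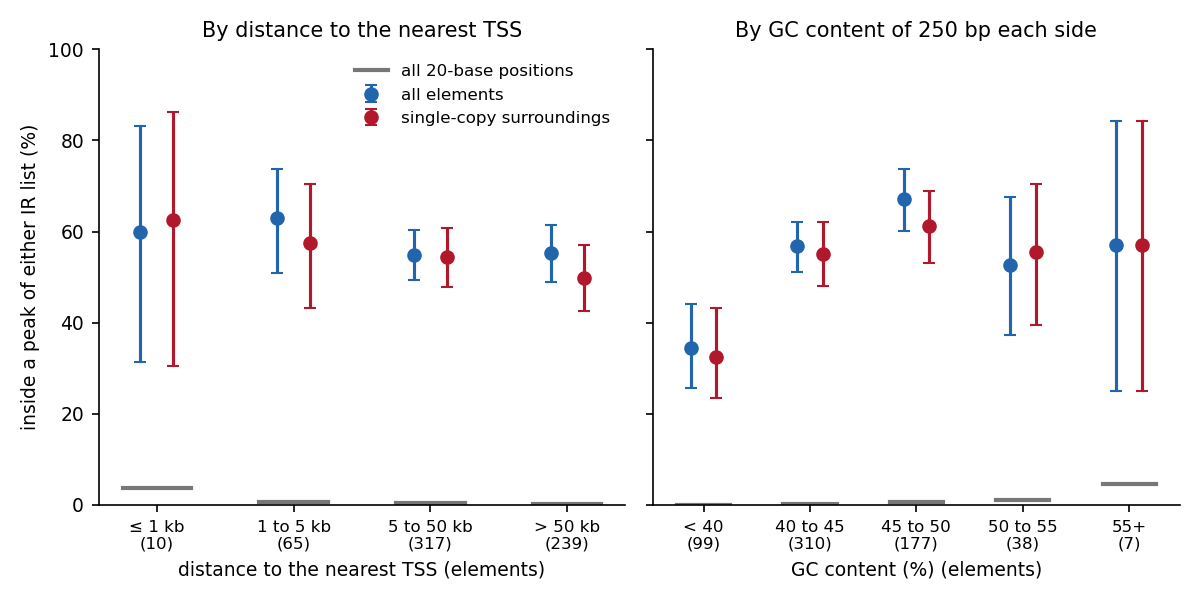
Share of elements that were bound (y axis, percent) by distance to the nearest TSS (left) and by GC content of 250 bp on each side (right), for all elements (blue) and single-copy surroundings (red), with 95% Wilson intervals, numbers of elements in brackets and grey bars for all 20-base positions of the same range. By TSS distance all intervals overlap, with shares from 62.5 down to 49.7% in single-copy surroundings, and the lowest share of all elements by GC content, 34.3%, is below 40% GC.

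Whether CpG at the junction of the decamers went with binding depended on which elements were counted. With CpG there 111 of 169 elements were bound (65.7%), 13.3 points above the rest (4.6 to 21.4). The most frequent sequence supplied 125 of the 169, and without it the shares were 52.3% (23 of 44) and 52.4%, a difference of −0.108 points (−15.1 to 14.6). Those 44 included the 23 loci of the fourth most frequent sequence. In single-copy surroundings 14 of 19 elements with CpG were bound (73.7%) and 52.1% of the rest, 21.5 points apart with an interval that includes no difference (−1.40 to 36.8). TpA at the junction had the lowest share, 33.7% (28 of 83, 24.5 to 44.4).

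Motifs of other factors within 250 bp did not separate the elements beyond counting error. In single-copy surroundings the AP-1 motif TGANTCA (either strand) was in 18.4% of bound and 14.7% of unbound windows, against 14.9% of all windows of 520 bp, while over all elements the order was turned round (16.4 and 18.3%). The PU.1-type motif GAGGAAG, that of a factor of B cells and myeloid cells, was in 27.8 and 24.0%, against 14.8%, and over all elements in 21.5 and 19.1%. The ETS motif CGGAAG was in 6.53 and 4.15% of single-copy windows, against 5.17%, and the GC box CCGCCC in 2.86 and 5.07%, against 4.75%. A match is a description of letters and not a bound site. A further perfect decamer within 100 bp was found near 41 elements, of which 20 were bound (48.8%, 34.3 to 63.5).

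Over all elements, departures from the perfect element lowered the share of bound sites in steps. Elements with 1 mismatch outside the C and G of the cores numbered 3952, of which 1159 were bound (29.3%, 27.9 to 30.8). With 2 mismatches the share was 6.02% (1213 of 20143) and with 3 it was 1.67% (1408 of 84327), against 0.435% of all positions. The perfect elements were 26.6 points above those with 1 mismatch (22.5 to 30.7), and 33.4 points above in single-copy surroundings, where 19.6% of the latter were bound (642 of 3269). The rest of the 1159 bound elements with 1 mismatch lay in repeated surroundings. There the order was turned round, with a higher bound share for 1 mismatch than for perfect elements (108 of 169, 63.9%). Elements with 2 or 3 mismatches were not split by copy number. The peaks themselves ranked lower with each step, with median percentiles in B cells IR of 91.9, 88.3, 74.6 and 67.8 from 0 to 3 mismatches. In numbers, bound elements with 1 mismatch were more frequent than bound perfect ones.

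A spacer lowered it more than a mismatch did. With 1 base between perfect decamers 50 of 486 were bound (10.3%, 7.89 to 13.3), with 2 bases 25 of 616 (4.06%), and with 3 to 15 bases between 0.570 and 4.99%. Over 1 to 15 bases the share was 3.0% (214 of 7129), 52.9 points below the unsplit elements (49.0 to 56.8). At 11 bases the 29 elements in B cells IR peaks shared 10 peaks, so those elements were not separate sites. Spaced elements were kept apart from perfect unsplit ones but not from unsplit ones with mismatches.

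**Figure D5:**
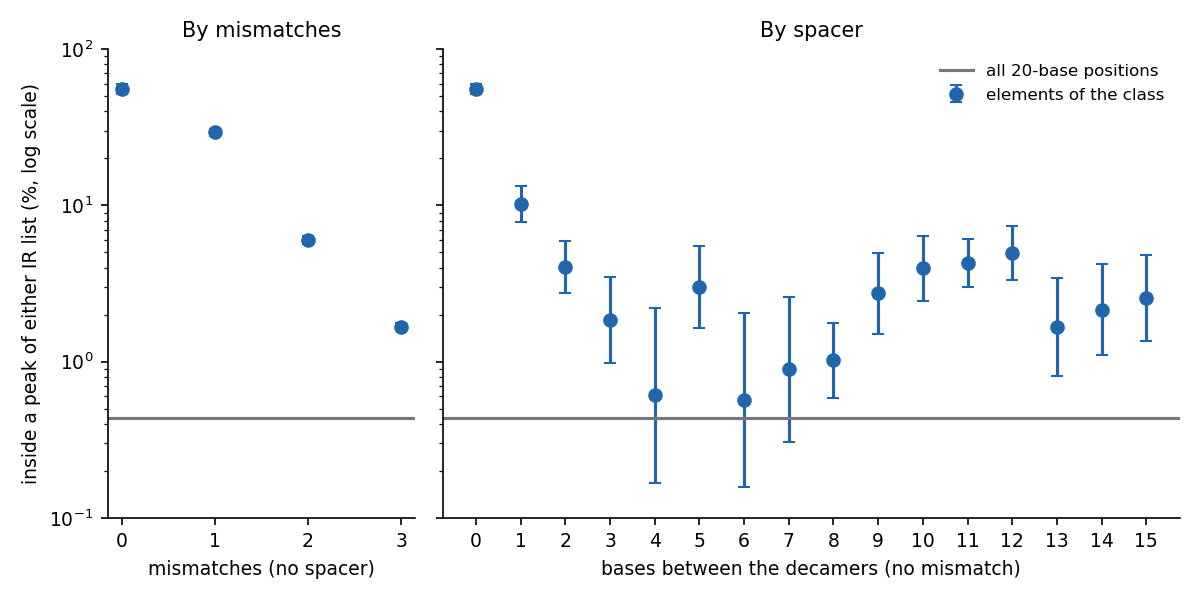
Share of elements inside a peak of either IR list (y axis, percent, log scale) by the number of mismatches without a spacer (left) and by the number of bases between perfect decamers (right), with 95% Wilson intervals (smaller than the points on the left) and a grey line for all 20-base positions (0.435%). Elements in repeated surroundings are included. The share falls from 55.9% to 1.67% over 3 mismatches and to 10.3% with 1 spacer base.

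A small number of known p53 target genes held a perfect element, at a higher share than protein-coding genes as a whole. From 5 kb upstream of the first TSS to the gene end, 4 of 79 listed target genes held one (5.06%) and 3 held a bound one (3.8%). Of 22350 protein-coding genes 212 held one (0.949%) and 113 a bound one (0.506%). The counts among target genes are small, and gene length, which sets the size of the window, was not matched between the sets. By role, these were 2 of 19 apoptosis genes, 1 of 11 genes of p53 feedback and the p53 family, 1 of 16 genes of metabolism, autophagy and redox, and none of 14 cell cycle arrest or 9 DNA repair genes. A bound element with exactly 1 mismatch was held by 8 of the 79, and one with up to 1 mismatch by 10 (12.7%), against 522 of all protein-coding genes (2.34%). Among the 8 were Cdkn1a, the cell cycle inhibitor p21, and Ccng1, which encodes cyclin G1.

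Zmat3, which encodes an RNA-binding protein, held the highest of them. Its element lay in an intron 1119.5 bp downstream of the nearest TSS and had values of 224.91 and 473.73 in the IR lists, B cells first, and of 26.63 and 29.82 in the mock lists. Fbxw7, a ubiquitin ligase gene, held gaaCTTGtctgaaCTTGtct at chr3:84645166-84645185, in an intron shared with Arfip1, with low values of 24.58 and 30.1 in the IR lists. Ddit4, an inhibitor of mTORC1 signalling, had an upstream element (gggCTAGcctggaCATGctt, chr10:59419209-59419228) with a value of 14.35 in B cells IR and no peak in non-B cells IR. A second element lay past the end of Ddit4, 3258.5 bp downstream of its TSS (agaCTAGtccaggCAAGtct, chr10:59411250-59411269), with 242.94 and 369.57. The element of Apaf1, a component of the apoptosome, lay in an intron (gagCAAGttcaagCTTGtct, chr10:90481411-90481430) and was in no peak.

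Bound elements near a TSS included genes of varied function. An intron of Csnk1g1, a casein kinase gene, held agaCATGtttaggCAAGcct at chr9:65757831-65757850, 594.5 bp downstream of the TSS, with 273.49 and 474.65 in the IR lists and 14.59 and 10.9 in the mock lists. The element 1653.5 bp upstream of Cenpm, a centromere protein gene, was a locus of the third most frequent sequence and had 221.33 and 306.89 in the IR lists and no mock peak. The intron element of Pepd, the gene of prolidase (gagCATGcctgagCATGcct, chr7:35759087-35759106), had 210.13 and 390.18, again without a mock peak. The values of these genes' mRNA were not analysed here.

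Of the 5 unbound elements nearest a TSS, 2 carried CTAG, against 97 of all 278 unbound elements (34.9%). The Spnb4 element, 45.5 bp upstream of the TSS, had CTAG in both cores, in surroundings of 66.0% GC. Atp9a, a phospholipid transporter gene, held a merged element of 3 decamers at chr2:168495635-168495664 (aggCTAGctcaggCTAGctcgggCTAGctc), all with CTAG, 196.5 bp downstream of its nearest TSS. The other 3 had no CTAG. Neither of the 2 was in a peak of any list, nor was the locus of the most frequent sequence 1331.5 bp upstream of 1810014B01Rik.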

How the data were processed

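p53 ChIP-seq of mouse spleen cells gave 6 libraries, of which 5 have a peak list and the input was not used here. Groups came from the sample labels, with 1 library each. Per the labels' processing notes, reads were aligned with BWA 0.6.2 to mm9 and handled with SAMtools. Per the methods of the study, peaks were called with MACS, and each list came from 1 library of pooled chromatin. The deposited lists give a chromosome, start, end, name and 1 value per peak. That value was read, from its range and steps, as −log10 of a peak p-value computed by the authors. It depends on depth and local background, so it was used only within a list, as a percentile. The depth of the libraries is unknown, and lying outside every peak means not called rather than shown to be free of p53. The narrowest peaks differed between lists, with 55 bp (B cells) and 53 bp (non-B cells) in mock, 175 and 174 bp after irradiation, and 55 bp in Trp53-/-.

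The members and lists were chosen with earlier results of these data known. The reference (NCBIM37, which is mm9) was scanned for the consensus, and hits closer than 20 bp were merged. An element counted as inside a peak when all its bases did. For elements longer than 20 bases the first 20 gave the sequence features. Genes came from GENCODE vM1 (95414 transcripts), and TSS distance was taken from the element midpoint. Coordinates are counted from 1. Copy number was the median count, on either strand, of exact 31-mers over the element and 100 bp on each side. The reference carried no repeat masking, so repeat classes were not used. Elements are not replicates, so no test was run: shares have 95% Wilson intervals, differences Newcombe intervals, and medians exact order-statistic intervals.

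Elements were named by rule: up to 10 in all 4 wild-type lists and the 5 highest in each IR list by value, up to 12 bound in both IR lists within 5 kb of a TSS, those in target genes, the 5 unbound ones nearest a TSS, and loci of up to 5 sequences bound at some single-copy loci only. The text gives those that carry a comparison, and the one-base relatives were chosen after their values were seen. Alternatives were other overlap rules, a minimum value of 8, removal of peaks shared with Trp53-/-, no merging, single-copy surroundings, other definitions of bound, and other TSS and GC windows. The difference by CTAG core and all values without the most frequent sequence were added after seeing the data. The steps were tested on a simulated sequence of 2000000 bases with 300 planted elements and recovered 19 of 19 known quantities. Python 3.11.15, numpy 2.4.6, scipy 1.17.1, numba 0.67.0 and matplotlib 3.10.9 were used.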

Additional observations from a re-analysis of the deposited data

How the results depend on the processing

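The 14 shares and differences were recomputed 79 times under other choices, of which 73 values stayed within the 95% interval of the reported value. When an element counted as bound by a midpoint within 300 bp of the peak midpoint, the mock shares moved to 11.1% (B cells) and to 9.35% in the other population. In single-copy surroundings the difference by junction CpG moved to 21.5 points (19 elements with CpG) and that between perfect elements and those with 1 mismatch to 33.4 points. Over 1 kb on each side the difference in median GC content was 0.75 points. Without the most frequent sequence the difference by junction CpG changed sign, to −0.108 points. The difference by CTAG core ranged from −36.8 to −32.7 points over its alternatives, which were chosen after seeing the data. That by TSS distance ranged from 0.217 to 9.97 points, with every interval including 0. No paired analysis was possible because there was only 1 library in every group. Leaving out a replicate was not possible for the same reason. The depth behind the lists is unknown, so an unbound element is one not called at the depth of these libraries, and shares in mock and IR lists rest on peaks of different smallest width.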
